A study of Mus musculus with 12 samples.

Results

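Genes that build and run the mitotic spindle were measured in cultured mouse aortic smooth muscle cells (primary cells of the muscle layer of the aortic wall) that had been given medium conditioned by macrophages. The set was a list of 55 gene symbols for mitosis, the spindle and the kinetochore, grouped by function and drawn up with earlier results of these data known, and all 55 had a row in the deposited table of 55822 genes. All 55 also passed the filter on low counts, which left 16140 genes in all. The 12 libraries fell into 3 groups of 4. In the first group the cells received medium from bone marrow-derived macrophages (BMDM) that had been primed overnight with 20 ng/mL IFNγ, stimulated for 4 h with 100 ng/mL LPS and then washed (IFNγ/LPS BMDM-CM, called IFNγ/LPS CM here). In the second they received medium from unstimulated macrophages (naïve BMDM-CM, called naive CM here). In both, the conditioned medium had been collected over 24 h in DMEM with 0.3% serum and 10 ng/mL M-CSF, and the muscle cells had been starved in 0.3% serum for 48 h before a 24 h exposure. In the third group the cells were in regular growth medium (regular medium here), for which the labels give neither the serum content nor a starvation step. The 3 media therefore need not match in serum, and neither conditioned medium has a control of unconditioned medium with M-CSF among these groups. Genotype, strain, sex and age of the mice are not given in the labels, nor is it said whether the numbered biological replicates came from separate animals, so the p-values rest on the spread among numbered libraries, part of which may be technical. Library columns were assigned to media with M0 taken for naive and M1 for stimulated macrophages, and every direction given rests on that.

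Mitosis opens when cyclin B and its kinase Cdk1 are activated, after which microtubule motors and bundling proteins assemble a bipolar spindle, kinetochores tie each chromosome to it, and a checkpoint holds the cell until every kinetochore is attached. The anaphase-promoting complex then marks securin and cyclin B for destruction, the sister chromatids part, and the actomyosin ring divides the cell. Transcripts of most of these genes are known to accumulate in G2 and mitosis and to be low in resting cells. In arteries, smooth muscle cells are mostly quiescent, and their return to division after injury is a classic subject of vascular biology.

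The mitosis genes were lowest in IFNγ/LPS CM, highest in naive CM and intermediate in regular medium. Their summed level was 721 to 945 counts per 1000000 (CPM) over the 4 libraries in IFNγ/LPS CM, 4612 to 4851 CPM in naive CM and 1203 to 1539 CPM in regular medium, so the 3 groups did not overlap. In IFNγ/LPS CM, 54 of the 55 genes fell relative to naive CM and 1, Pttg1, rose, where 35.8% of all genes tested fell and 36.1% rose. In naive CM, 54 rose relative to regular medium and Pttg1 did not pass the test, where 18.3% of all genes rose and 16.4% fell. The counts given below for each role stand beside the same shares. The levels are of bulk RNA, in which fewer dividing cells and less RNA of these genes per cell cannot be told apart. The heat map of all 55 genes shows the same order in nearly every row.

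**Figure D1:**
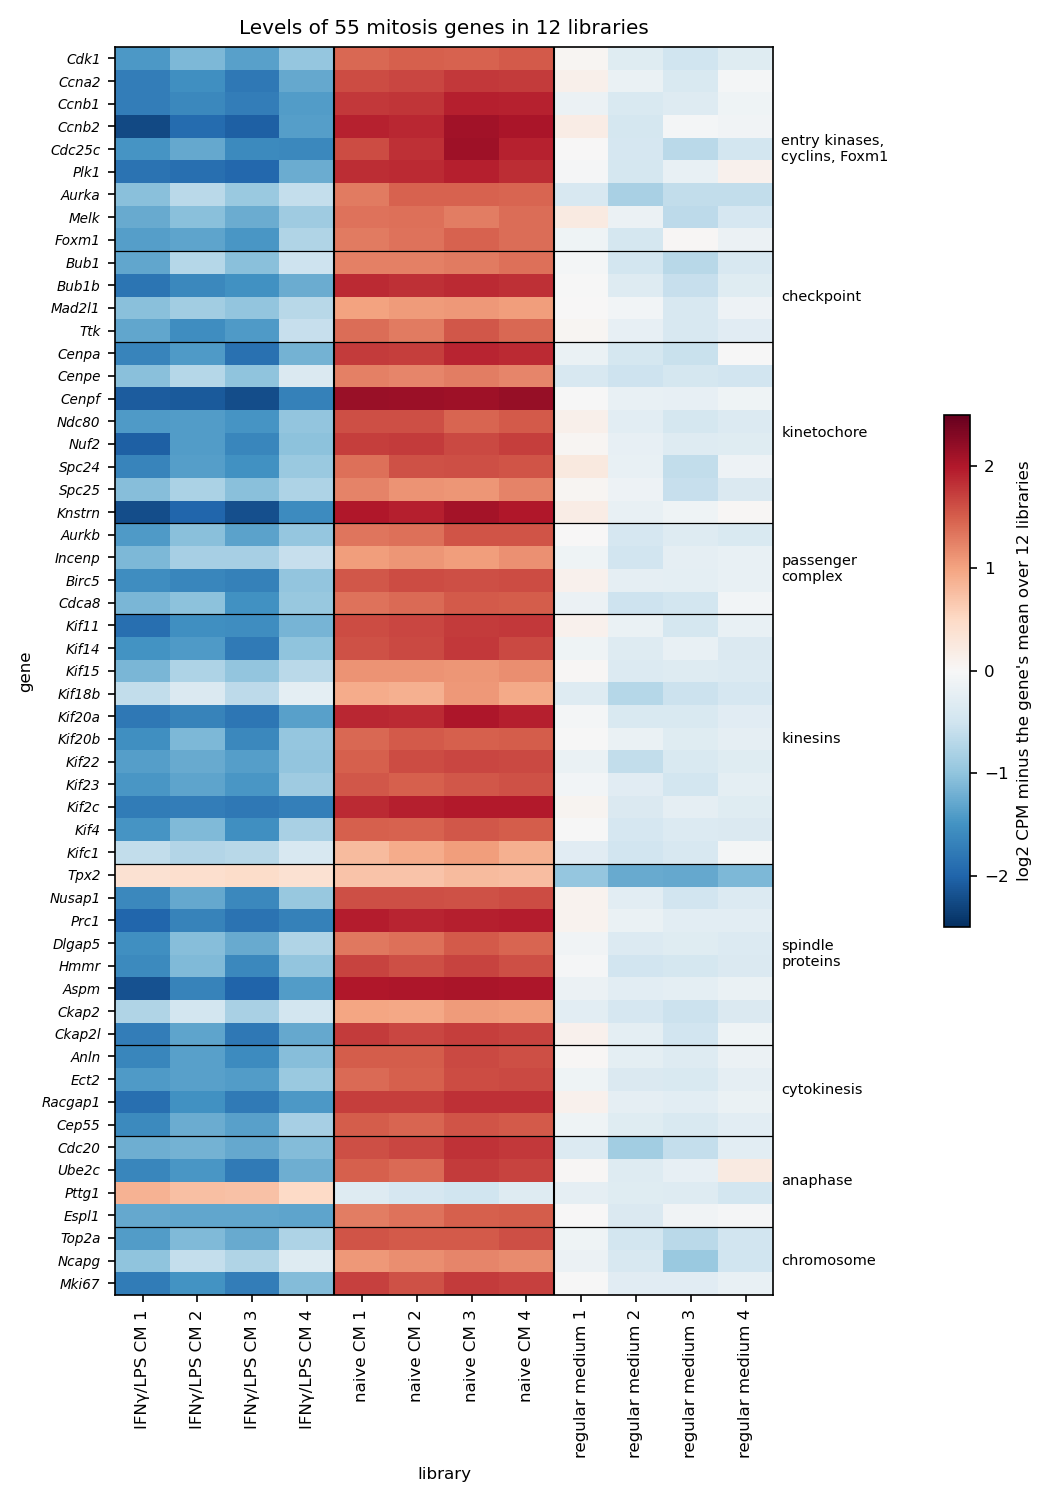
Levels of the 55 mitosis genes (rows, grouped by role) in the 12 libraries (columns), as log2 CPM minus the gene's mean over the 12 libraries. The naive CM libraries are above the mean and the IFNγ/LPS CM libraries below it in nearly every row, and Tpx2 and Pttg1 are the 2 rows in which IFNγ/LPS CM is above the mean.

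The stretches of promoter that precede some of these genes are printed because members that move together in the cell cycle are known to share short elements near their start. The window searched was 250 bases before to 50 bases after the transcription start (RefSeq, GRCm38.p6), which the table held for 46 of the 55 members. Aurkb, Ccna2, Cdc25c, Dlgap5, Foxm1, Incenp, Kif20a, Spc24 and Tpx2 had none. Each line gives the 120 bases that end just before the start, 5′ to 3′ on the strand of the gene, with these motifs in capitals on either strand. One motif is TTTGAA, which reads TTCAAA on the other strand, and another is its variant TTCGAA. The last is CCAAT, which reads ATTGG on the other strand. TTTGAA is the main form of the cell cycle homology region and CCAAT is the letter core of the NF-Y box. The genes are a driver of mitotic entry (Cdk1, chr10:69352913-69353032, minus strand), the anaphase activator Cdc20 (chr4:118437344-118437463, minus strand), the ubiquitin-conjugating enzyme Ube2c (chr2:164769809-164769928, plus strand), the spindle midzone protein Prc1 (chr7:80294356-80294475, plus strand, the start of 2 in the table that has TTTGAA), the motor Kif11 (chr19:37376262-37376381, plus strand), separase (Espl1, chr15:102296173-102296292, plus strand) and securin (Pttg1, chr11:43425982-43426101, minus strand), the member that rose.
Cdk1: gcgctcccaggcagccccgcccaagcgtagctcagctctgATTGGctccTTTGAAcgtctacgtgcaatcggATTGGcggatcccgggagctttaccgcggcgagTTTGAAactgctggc
Cdc20: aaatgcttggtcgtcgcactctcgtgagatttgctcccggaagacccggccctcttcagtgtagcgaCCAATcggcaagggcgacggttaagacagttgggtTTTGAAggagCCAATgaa
Ube2c: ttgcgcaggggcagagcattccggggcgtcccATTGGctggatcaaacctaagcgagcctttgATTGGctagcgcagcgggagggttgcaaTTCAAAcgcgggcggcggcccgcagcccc
Prc1: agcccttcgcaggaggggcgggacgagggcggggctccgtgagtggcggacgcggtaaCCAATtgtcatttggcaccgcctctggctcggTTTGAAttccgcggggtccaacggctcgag
Kif11: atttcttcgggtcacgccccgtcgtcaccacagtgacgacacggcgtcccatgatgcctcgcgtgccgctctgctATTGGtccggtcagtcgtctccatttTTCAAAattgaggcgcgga
Espl1: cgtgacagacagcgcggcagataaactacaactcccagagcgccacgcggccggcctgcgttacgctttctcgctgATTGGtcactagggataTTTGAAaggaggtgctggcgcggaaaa
Pttg1: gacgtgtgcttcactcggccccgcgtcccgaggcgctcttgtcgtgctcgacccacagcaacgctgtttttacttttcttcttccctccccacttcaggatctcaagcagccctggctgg

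Of the 46 promoters of members, 36 (78.3%) held TTTGAA on either strand, against 20.2% of the 27025 genes with a promoter in the table. In 32 of them (69.6%) it lay within 50 bases of the start, against 5.72% of all genes. The other form, TTCGAA, was in 3 (6.52%, against 1.8% of all genes), and CCAAT was in 33 (71.7%, against 41.1%). The 12 other lists of cell cycle and motor genes taken up below, some with only 6 promoters, varied widely. In them TTTGAA was in 13.3% (centrosome) to 66.7% (condensin) of promoters, and CCAAT in 33.3% (condensin) to 90.9% (entry and exit regulators). In the printed stretches the Cdk1 promoter holds TTTGAA and CCAAT 2 times each, and the stretch of Pttg1 holds none of these motifs. That stretch and the whole window searched for Pttg1 lie within the gene as annotated in GENCODE M21 (chr11:43420250-43426251). The sequence before the outer end of that annotated gene was therefore not searched. The printed genes were picked by name. Pttg1 was 1 of 10 members with no TTTGAA in the window, and alone of them is printed. The others were Birc5, Bub1, Ccnb1, Cenpe, Knstrn, Mad2l1, Melk, Nuf2 and Nusap1, all of which fell in IFNγ/LPS CM relative to naive CM. The median log2 fold change in that comparison was -2.86 over the 36 members with TTTGAA and -2.70 over the 10 without. The letters of the interferon-stimulated response element (core GAAA repeated after 2 free bases) were in 3 member promoters (6.52%, against 3.99% of all genes). A gene counted once if any of its starts in the table had the motif, and matches of different motifs may share letters. A letter match is not a bound site.

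Library totals were 40270540 to 44607657 estimated counts in IFNγ/LPS CM, 28542613 to 56323683 in naive CM and 28097496 to 61493375 in regular medium, so that the lowest member count in any library was 49, for Cdc25c in IFNγ/LPS CM. Correlations of log2 CPM between libraries of a group were 0.9885 to 0.993. Of the markers that define contractile smooth muscle, Acta2 was present, at 77.3 CPM in IFNγ/LPS CM, 220.2 CPM in naive CM and 280.1 CPM in regular medium. Myh11, at most 0.716 CPM on average in any medium, and Cnn1, at most 0.276 CPM, were near 0. Tagln was at 0.55 CPM in IFNγ/LPS CM, 10.8 CPM in naive CM and 31.6 CPM in regular medium. Smtn was at 37.4, 65.8 and 45.7 CPM in the same order. In IFNγ/LPS CM relative to naive CM 35.8% of all genes tested were lower and 36.1% higher, and the marker counts here stand beside these shares. Of the 10 smooth muscle markers listed, 7 were lower in that comparison, 1 (Mylk) was higher and 2 did not pass. Their median log2 fold change was -1.53. The 10 summed to 117.5 to 120.7 CPM in IFNγ/LPS CM, 303.8 to 319.8 CPM in naive CM and 335.8 to 421.1 CPM in regular medium. The sum of the macrophage markers was higher in IFNγ/LPS CM than in the other media. The 12 on the list summed to 901 to 1012 CPM in IFNγ/LPS CM, 33.3 to 36.7 CPM in naive CM and 33.7 to 35.5 CPM in regular medium, and 5 of the 6 tested were higher in IFNγ/LPS CM than in naive CM. Most of that sum was Mpeg1, at 874 CPM in IFNγ/LPS CM and 0.309 CPM in naive CM. The other markers that were higher in IFNγ/LPS CM were Cd14 (42.9 CPM, naive CM 18.7 CPM), Cd68 (6.19 CPM, naive CM 1.07 CPM), Csf1r (4.62 CPM, naive CM 0.203 CPM) and Lyz2 (0.472 CPM, naive CM 0.0785 CPM), and Mertk was lower (10.4 CPM, naive CM 14.6 CPM). The 6 markers too low to be tested had, over the 4 IFNγ/LPS CM libraries, 1 count of Ptprc, 2 of Adgre1, 6 of Itgam, 2 of Tyrobp, 24 of Cx3cr1 and 0 of Fcgr1. The 10 fibroblast markers summed to 6832 to 7510 CPM in IFNγ/LPS CM, 2081 to 2255 CPM in naive CM and 2036 to 2334 CPM in regular medium. Dcn and Ly6a made up most of that sum, and of the 9 fibroblast markers tested 5 were lower in IFNγ/LPS CM than in naive CM and 3 higher (median log2 fold change -1.22), with Scara5 at 0.0762 CPM in IFNγ/LPS CM and 18.8 CPM in naive CM. The 10 endothelial markers summed to at most 3.34 CPM in any library. The part of other cell types in the mitosis results was not tested.

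The comparison of IFNγ/LPS CM with naive CM asks what stimulation of the macrophages adds to their medium. All 55 mitosis genes passed the test, 54 with lower and 1 with higher levels (edgeR quasi-likelihood test, Benjamini-Hochberg adjusted p under 0.05 over all 16140 genes), where 71.9% of all genes tested passed, 35.8% lower and 36.1% higher. At least 2-fold lower were 53, against 15% of all genes. The libraries of the 2 groups did not overlap in any of the 55, with 54 lower and 1 higher, against 34.6% and 34.9% of all genes. The median log2 fold change was -2.85, or 7.23-fold lower, beside 0.004 over all genes. The strongest fall was that of Cenpf (17.7-fold), followed by Knstrn (15.9-fold), Ccnb2 (14.5-fold) and Aspm (14.0-fold), and the smallest that of Tpx2 (1.26-fold), Kif18b (2.68-fold) and Kifc1 (2.86-fold). The median of each of the 9 roles lay between -3.28, for the kinases and cyclins of mitotic entry, and -2.37, for the spindle checkpoint.

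The comparison of naive CM with regular medium asks what medium of unstimulated macrophages does relative to growth medium. Here 54 of the 55 were higher, all of them at least 2-fold, and none was lower, where 18.3% of all genes were higher, 16.4% lower, 2.87% at least 2-fold higher and 0.948% at least 2-fold lower. The libraries did not overlap for the same 54, against 17.2% of all genes higher without overlap. The median log2 fold change was 1.80, or 3.48-fold higher, beside -0.02 over all genes. Of the 464 genes that rose at least 2-fold in naive CM, 54 were thus on this list, which was drawn up with earlier results known. Mitosis genes outside the list were also among the 464, such as 16 of the 26 further kinetochore assembly genes given below. The range among these 54 was narrow, between 2.26-fold for Mad2l1 and 4.802-fold for Cenpf.

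The comparison of IFNγ/LPS CM with regular medium shares all its libraries with the other two. In it 52 of the 55 passed, 50 of them lower and 2 higher, where 71.8% of all genes passed, 36.4% lower and 35.4% higher. At least 2-fold lower were 30, against 14.4% of all genes, and 46 were lower without overlap between libraries, against 32.7% of all genes. The median log2 fold change was -1.04, or 2.05-fold lower, beside -0.03 over all genes. The 2 that rose were Tpx2 and Pttg1, and the 3 that did not pass were Aurka, Kif18b and Ncapg. With library totals in place of the TMM scaling, 53 were lower and 2 higher; that scaling moves the median of all genes to a log2 fold change of -0.41 here and to -0.38 relative to naive CM.

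**Figure D2:**
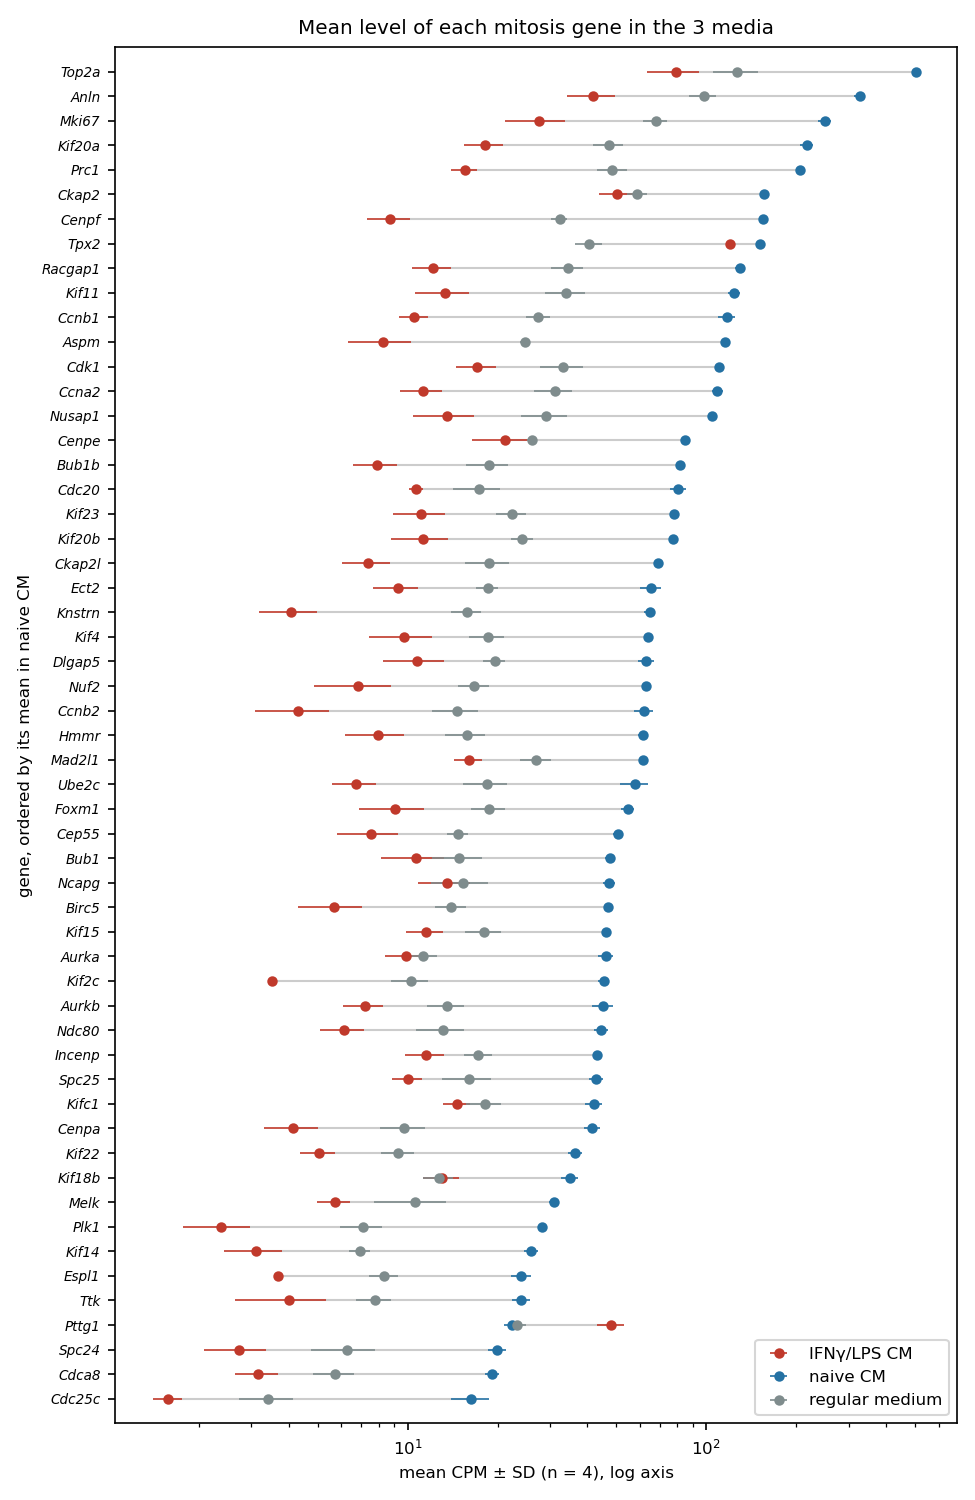
Mean CPM ± SD (n = 4 libraries, log axis) of each mitosis gene in IFNγ/LPS CM (red), naive CM (blue) and regular medium (grey), ordered by the level in naive CM. The blue point lies to the right of the other 2 in every row but that of Pttg1, in which the red point, at 48.1 CPM, lies to the right.

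Among the drivers of mitotic entry all 9 fell in IFNγ/LPS CM relative to naive CM and all 9 rose in naive CM relative to regular medium, with median log2 fold changes of -3.28 and 1.99. Cdk1 (chr10:69335146-69352938 on GRCm38 in GENCODE M21, as for the coordinates of genes that follow), the kinase that starts mitosis, was at 14.6, 18.1, 15.4 and 20.3 CPM in the 4 IFNγ/LPS CM libraries, 107, 111, 109.9 and 114 CPM in naive CM and 40.8, 31.9, 28.1 and 32.1 CPM in regular medium. All 4 IFNγ/LPS CM libraries were below all 4 of regular medium, and these below all 4 of naive CM. Cdk1 was 6.46-fold lower in IFNγ/LPS CM than in naive CM (log2 fold change -2.69, SE 0.122, adjusted p = 1.03e-09) and 3.31-fold higher in naive CM than in regular medium (adjusted p = 4.16e-07). Its activating partners, the B cyclins, moved further. Ccnb1 was at 9.71, 10.5, 9.73 and 12.2 CPM in the 4 IFNγ/LPS CM libraries, 109, 112, 124 and 123 CPM in naive CM and 29.2, 24.8, 25.8 and 29.9 CPM in regular medium. Ccnb2 was at 3.26, 4.11, 3.77 and 5.99 CPM in the 4 IFNγ/LPS CM libraries, 58.9, 57.4, 66.6 and 64.2 CPM in naive CM and 17.7, 11.4, 15.0 and 14.6 CPM in regular medium. The annotation holds pseudogenes named after Ccnb1, Ccnb2, Kif4 and Kif22, with which these genes may share reads, so their levels are less certain. Again the 3 groups did not overlap, and the falls were 11.1-fold for Ccnb1 and 14.5-fold for Ccnb2 (adjusted p = 1.63e-16 and 3.22e-09). Cyclin A2 (Ccna2), which acts in S phase and at entry, averaged 11.2 ± 1.82 CPM in IFNγ/LPS CM, 109 ± 4.66 CPM in naive CM and 31.1 ± 4.53 CPM in regular medium (SD, n = 4 each).

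Cdc25c, the phosphatase that activates Cdk1, averaged 1.58 ± 0.173 CPM in IFNγ/LPS CM, 16.3 ± 2.38 CPM in naive CM and 3.42 ± 0.702 CPM in regular medium (SD, n = 4 each). The polo-like kinase Plk1, needed for spindle assembly and for exit from mitosis, was at 2.15, 2.08, 1.97 and 3.24 CPM in the 4 IFNγ/LPS CM libraries, 27.5, 27.9, 29.4 and 27.7 CPM in naive CM and 7.54, 5.68, 6.75 and 8.30 CPM in regular medium. Replicate 4 was the highest of the IFNγ/LPS CM libraries and still below every library of regular medium. Plk1 was 11.9-fold lower in IFNγ/LPS CM than in naive CM (adjusted p = 1.49e-12) and 2.99-fold lower than in regular medium (adjusted p = 6.61e-08). Foxm1, the transcription factor that activates many genes of G2 and mitosis, was at 8.02, 8.36, 7.62 and 12.4 CPM in the 4 IFNγ/LPS CM libraries, 51.6, 53.7, 58.2 and 55.1 CPM in naive CM and 19.4, 15.4, 21.2 and 18.8 CPM in regular medium. It fell 6.01-fold in IFNγ/LPS CM relative to naive CM and 2.05-fold relative to regular medium, without overlap in either. Melk, a protein kinase of dividing cells, fell 5.45-fold relative to naive CM.

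Aurka (Aurora A), the centrosomal kinase that builds the spindle poles, differed from the other entry kinases in one comparison. It was at 8.29, 10.8, 9.01 and 11.3 CPM in the 4 IFNγ/LPS CM libraries, 42.3, 47.4, 47.4 and 47.0 CPM in naive CM and 12.9, 9.75, 11.2 and 11.1 CPM in regular medium. The naive CM libraries stood apart, whereas those of IFNγ/LPS CM and regular medium overlapped. Aurka fell 4.68-fold in IFNγ/LPS CM relative to naive CM (adjusted p = 1.93e-12), and its log2 fold change relative to regular medium was -0.19 (SE 0.0995, adjusted p = 0.0923). That second difference passed the test without IFNγ/LPS CM replicate 4 (adjusted p = 0.0241), without regular medium replicate 2 (adjusted p = 0.0235) and with library totals (log2 fold change -0.58).

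The 4 checkpoint genes fell in IFNγ/LPS CM relative to naive CM and rose in naive CM relative to regular medium, with medians of -2.37 and 1.65. Bub1b (BubR1), which inhibits the anaphase activator Cdc20, was at 6.46, 7.41, 8.01 and 9.65 CPM in the 4 IFNγ/LPS CM libraries, 83.4, 80.5, 83.0 and 80.9 CPM in naive CM and 22.6, 18.3, 15.3 and 18.4 CPM in regular medium. No libraries overlapped between media, and the fall relative to naive CM was 10.4-fold (adjusted p = 2.21e-11). Mad2l1, the other Cdc20 inhibitor, was at 14.4, 16.2, 15.1 and 18.4 CPM in the 4 IFNγ/LPS CM libraries, 59.2, 62.1, 62.5 and 60.9 CPM in naive CM and 29.8, 28.2, 22.5 and 27.3 CPM in regular medium. It fell less, 3.82-fold relative to naive CM, and rose 2.26-fold in naive CM relative to regular medium. The checkpoint kinase Ttk fell 6.00-fold and the kinase Bub1 4.47-fold relative to naive CM. Relative to regular medium Bub1 was at 7.86, 11.9, 9.45 and 13.6 CPM in IFNγ/LPS CM, against 18.7, 14.1, 12.0 and 14.6 CPM in regular medium, with overlap between the libraries. This difference passed (log2 fold change -0.49, adjusted p = 0.0226) but not in a fit of these 2 groups alone (adjusted p = 0.0516), without IFNγ/LPS CM replicate 3 (adjusted p = 0.0645) or without regular medium replicate 1 (adjusted p = 0.0561).

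All 8 centromere and kinetochore genes fell in IFNγ/LPS CM relative to naive CM and rose in naive CM relative to regular medium (medians -3.04 and 1.83). Cenpf (chr1:189640606-189688086), a large protein of the outer kinetochore, was at 8.34, 8.25, 7.57 and 10.9 CPM in the 4 IFNγ/LPS CM libraries, 156, 154, 153 and 158 CPM in naive CM and 34.9, 31.0, 30.5 and 32.6 CPM in regular medium. The 4 naive CM libraries lay within 153 to 158 CPM, and no library of another medium came near them. Its log2 fold change in IFNγ/LPS CM was -4.15 relative to naive CM and -1.89 relative to regular medium (SE 0.081 and 0.08, adjusted p = 2.34e-17 and 1.11e-12). Knstrn, a small protein that joins the spindle to the kinetochore, was at 3.44, 4.02, 3.46 and 5.37 CPM in the 4 IFNγ/LPS CM libraries, 64.4, 61.7, 67.8 and 64.3 CPM in naive CM and 18.1, 14.0, 14.8 and 16.4 CPM in regular medium. It showed the second strongest fall relative to naive CM and the strongest of all 55 relative to regular medium (3.90-fold). Cenpa, the histone H3 variant that marks the centromere, fell 10.0-fold relative to naive CM.

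The 4 subunits of the Ndc80 complex, which grips the microtubule end, fell to unlike degrees in IFNγ/LPS CM relative to naive CM. Nuf2 fell 9.19-fold, Spc24 7.34-fold, Ndc80 7.29-fold and Spc25 4.28-fold. Ndc80 itself was at 5.65, 5.76, 5.43 and 7.64 CPM in the 4 IFNγ/LPS CM libraries, 46.5, 46.3, 41.4 and 44.1 CPM in naive CM and 16.6, 12.6, 11.2 and 11.9 CPM in regular medium. Cenpe, the kinesin of the kinetochore, was at 17.4, 21.7, 17.9 and 27.8 CPM in the 4 IFNγ/LPS CM libraries, 85.8, 83.6, 86.4 and 83.8 CPM in naive CM and 27.1, 25.1, 26.3 and 25.6 CPM in regular medium. Its IFNγ/LPS CM and regular medium libraries overlapped, replicate 4 of IFNγ/LPS CM being above every regular medium library. Cenpe fell 4.00-fold relative to naive CM (adjusted p = 7.85e-09). Its fall relative to regular medium was marginal (log2 fold change -0.30, adjusted p = 0.0403) and was lost with no low-count filter (adjusted p = 0.0843), in a fit of the 2 groups alone (adjusted p = 0.0754) and without any 1 library other than IFNγ/LPS CM replicate 4.

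The chromosomal passenger complex, which corrects wrong attachments and later starts cytokinesis, fell in all 4 subunits relative to naive CM and rose in all 4 in naive CM relative to regular medium (medians -2.63 and 1.74). Its kinase Aurkb (Aurora B) was at 6.11, 7.87, 6.40 and 8.35 CPM in the 4 IFNγ/LPS CM libraries, 41.3, 42.5, 48.2 and 48.2 CPM in naive CM and 16.4, 12.2, 13.0 and 12.5 CPM in regular medium. The 3 media did not overlap, and the fall relative to naive CM was 6.28-fold (adjusted p = 1.61e-11). Survivin (Birc5) fell 8.27-fold, borealin (Cdca8) 6.06-fold and the scaffold Incenp 3.76-fold. Incenp averaged 11.5 ± 1.72 CPM in IFNγ/LPS CM, 43.2 ± 1.46 CPM in naive CM and 17.3 ± 1.84 CPM in regular medium.

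All 11 mitotic kinesins fell in IFNγ/LPS CM relative to naive CM and all 11 rose in naive CM relative to regular medium (medians -2.81 and 1.80). Kif11, the motor that pushes the poles apart, averaged 13.3 ± 2.71 CPM in IFNγ/LPS CM, 124 ± 5.79 CPM in naive CM and 34.0 ± 5.21 CPM in regular medium, and fell 9.31-fold relative to naive CM. Kif15, which can take over from Kif11, fell 4.02-fold. Kif20a, which carries the passenger complex to the midzone, was at 16.4, 17.9, 16.2 and 22.1 CPM in the 4 IFNγ/LPS CM libraries, 209, 208, 231 and 219.5 CPM in naive CM and 55.2, 43.9, 43.6 and 46.4 CPM in regular medium. It fell 12.0-fold (adjusted p = 4.72e-12), and Kif23, the motor of the centralspindlin complex, fell 7.03-fold. The chromosome-bound kinesins Kif22 and Kif4 fell 7.23-fold and 6.58-fold, the cytokinesis kinesins Kif14 and Kif20b 8.35-fold and 6.90-fold, and the minus-end motor Kifc1 2.86-fold.

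Kif2c and Kif18b, both of which shorten microtubules, parted in their response. Kif2c was at 3.498, 3.56, 3.38 and 3.60 CPM in the 4 IFNγ/LPS CM libraries, 42.9, 45.1, 46.7 and 46.5 CPM in naive CM and 12.3, 9.12, 10.0 and 9.52 CPM in regular medium. Its IFNγ/LPS CM libraries hardly differed among themselves, and its fall of 12.9-fold relative to naive CM was the strongest of the kinesins (adjusted p = 5.59e-18). Kif18b (chr11:102905529-102925124) was at 11.73, 14.0, 11.3 and 15.1 CPM in the 4 IFNγ/LPS CM libraries, 33.8, 33.1, 38.1 and 34.6 CPM in naive CM and 14.3, 10.9, 12.3 and 13.4 CPM in regular medium. The IFNγ/LPS CM and regular medium libraries of Kif18b interleaved, and both groups were below all naive CM libraries. Kif18b fell 2.68-fold relative to naive CM (adjusted p = 5.13e-10), and relative to regular medium its log2 fold change was 0.03 (SE 0.0974, adjusted p = 0.785), which became -0.35 with library totals (adjusted p = 0.00348). The ratio of Kif18b to Kif2c, picked after the values were seen and given with no test, averaged 3.71 ± 0.427 in IFNγ/LPS CM (SD over 4 libraries here and for the other media), 0.771 ± 0.0383 in naive CM and 1.25 ± 0.108 in regular medium.

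**Figure D3:**
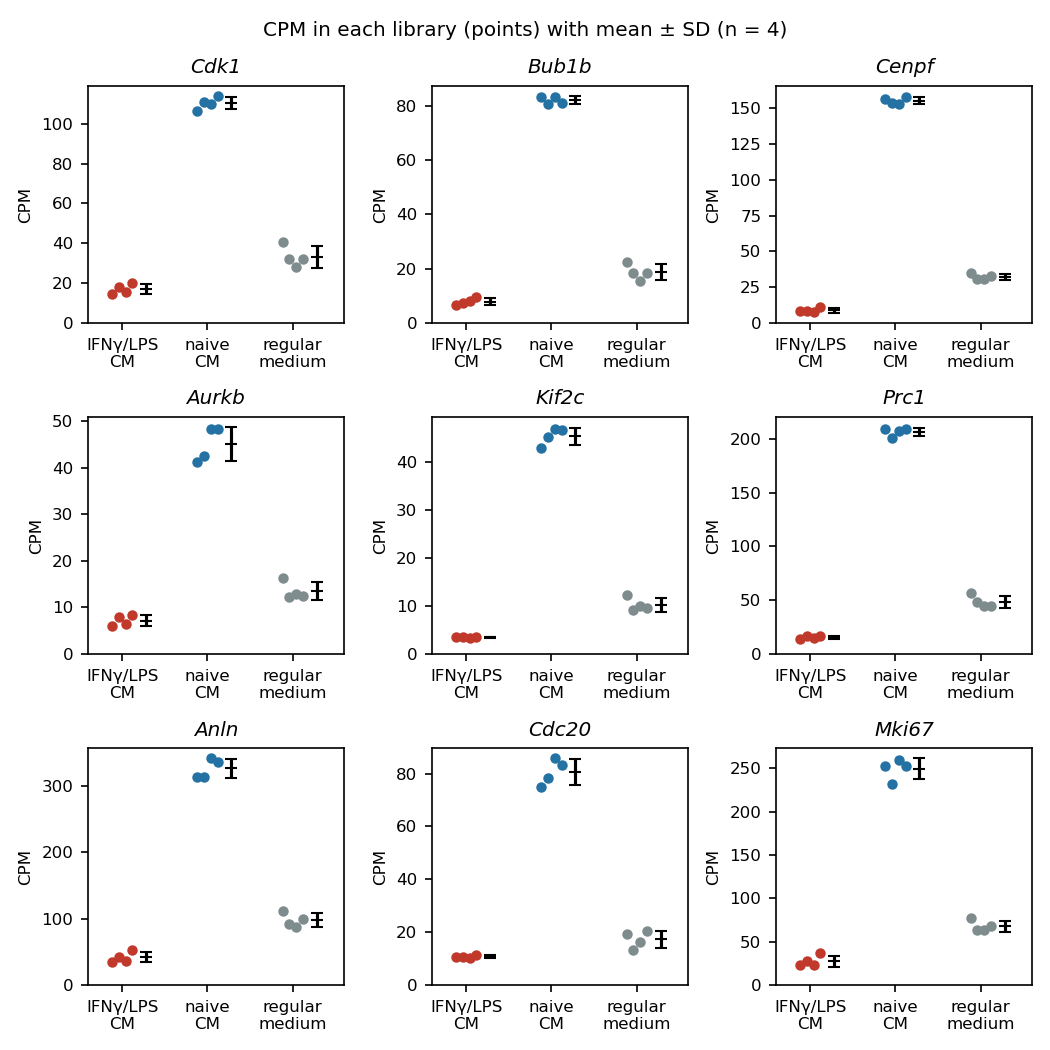
CPM of 9 mitosis genes, 1 for each role, in every library (points, in replicate order from left to right), with mean ± SD (n = 4) beside them, on axes that start at 0. In all 9 panels the IFNγ/LPS CM points lie below those of both other media and the naive CM points above them, as for Mki67, whose mean was 27.5 CPM in IFNγ/LPS CM, 249 CPM in naive CM and 67.8 CPM in regular medium.

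The 8 spindle microtubule proteins all fell in IFNγ/LPS CM relative to naive CM, 7 of them at least 2-fold, and all 8 rose in naive CM relative to regular medium (medians -2.95 and 1.88). Prc1, which crosslinks the microtubules of the midzone, was at 13.6, 16.8, 14.9 and 16.6 CPM in the 4 IFNγ/LPS CM libraries, 209, 200.4, 207 and 209 CPM in naive CM and 56.6, 47.9, 44.7 and 44.8 CPM in regular medium. Aspm, a protein of the spindle poles, was at 6.30, 8.94, 7.15 and 10.8 CPM in the 4 IFNγ/LPS CM libraries, 114, 116, 117 and 116 CPM in naive CM and 25.7, 23.7, 24.0 and 25.4 CPM in regular medium. In both the media were fully separate, with falls relative to naive CM of 13.3-fold for Prc1 and 14.0-fold for Aspm (adjusted p = 6.94e-16 and 5.12e-12). Nusap1 fell 7.72-fold, Hmmr 7.72-fold, Dlgap5 5.86-fold and Ckap2l 9.31-fold, all of them microtubule-associated proteins of the spindle. Ckap2, a relative of Ckap2l, was at 45.7, 55.7, 43.7 and 55.8 CPM in the 4 IFNγ/LPS CM libraries, 153, 151, 161 and 159 CPM in naive CM and 64.3, 57.7, 53.1 and 59.9 CPM in regular medium. It was the most abundant member per kilobase in regular medium and fell 3.11-fold in IFNγ/LPS CM relative to naive CM. Its fall relative to regular medium was small (log2 fold change -0.23, adjusted p = 0.0176) and was lost without IFNγ/LPS CM replicate 1 (adjusted p = 0.0575) or without regular medium replicate 1 (adjusted p = 0.0527).

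Tpx2 (chr2:152847964-152895321), which activates Aurka and nucleates microtubules around chromosomes, differed less between the conditioned media than any other member with the TMM scaling. It was at 118, 121, 125 and 117 CPM in the 4 IFNγ/LPS CM libraries, 147, 148, 157 and 154 CPM in naive CM and 46.1, 37.8, 37.0 and 41.5 CPM in regular medium. The IFNγ/LPS CM libraries lay just below those of naive CM and far above those of regular medium, with no overlap. Tpx2 was 1.26-fold lower in IFNγ/LPS CM than in naive CM (log2 fold change -0.33, SE 0.0538, adjusted p = 1.85e-05), 2.96-fold higher than in regular medium (adjusted p = 3.78e-15), and 3.72-fold higher in naive CM than in regular medium (adjusted p = 3.20e-14). Over the alternatives that left out no single library, the log2 fold change of Tpx2 relative to naive CM reached -0.72. No other member was lower than in naive CM and higher than in regular medium. The ratio of Tpx2 to its kinase Aurka, picked after the values were seen and not tested, averaged 12.4 ± 1.92 in IFNγ/LPS CM (SD over 4 libraries here and for the other media), 3.30 ± 0.150 in naive CM and 3.62 ± 0.244 in regular medium.

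The 4 cytokinesis genes fell in IFNγ/LPS CM relative to naive CM and rose in naive CM relative to regular medium (medians -2.89 and 1.79). Anillin (Anln), the scaffold of the contractile ring, was at 35.4, 42.6, 36.9 and 52.3 CPM in the 4 IFNγ/LPS CM libraries, 314, 314, 342 and 336 CPM in naive CM and 111, 92.7, 88.1 and 99.5 CPM in regular medium. The media did not overlap. Racgap1, the partner of Kif23 in centralspindlin, was at 10.2, 13.3, 11.1 and 14.0 CPM in the 4 IFNγ/LPS CM libraries, 125, 125, 134 and 134 CPM in naive CM and 40.5, 32.2, 31.5 and 33.3 CPM in regular medium. The falls relative to naive CM were 7.82-fold for Anln and 10.7-fold for Racgap1, 7.04-fold for Ect2, which activates RhoA at the equator, and 6.74-fold for Cep55, which recruits the machinery of final abscission.

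Of the 4 genes of the anaphase route, 3 fell and 1 rose in IFNγ/LPS CM relative to naive CM, and 3 rose in naive CM relative to regular medium. Cdc20, the activator of the anaphase-promoting complex, was at 10.4, 10.7, 10.1 and 11.5 CPM in the 4 IFNγ/LPS CM libraries, 75.0, 78.4, 85.9 and 83.3 CPM in naive CM and 19.3, 13.4, 16.1 and 20.3 CPM in regular medium. It fell 7.54-fold in IFNγ/LPS CM relative to naive CM (adjusted p = 2.28e-11) and 1.61-fold relative to regular medium (adjusted p = 9.77e-05). Ube2c, the complex's ubiquitin-conjugating enzyme, fell 8.58-fold and 2.75-fold in the same comparisons. Separase (Espl1), the protease that cuts cohesin, was at 3.71, 3.68, 3.66 and 3.63 CPM in the 4 IFNγ/LPS CM libraries, 21.9, 23.1, 25.3 and 25.8 CPM in naive CM and 9.09, 7.01, 8.53 and 8.80 CPM in regular medium. The IFNγ/LPS CM libraries of Espl1 were almost equal, and its fall relative to naive CM was 6.54-fold (adjusted p = 1.01e-15).

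Pttg1 (chr11:43420250-43426251) encodes securin, the inhibitor of separase, and was the member that went the other way. It was at 53.1, 49.2, 48.8 and 41.2 CPM in the 4 IFNγ/LPS CM libraries, 23.5, 21.9, 20.8 and 23.4 CPM in naive CM and 25.04, 23.6, 23.3 and 21.3 CPM in regular medium. All 4 IFNγ/LPS CM libraries were above all others, replicate 4 being the lowest of them, while those of naive CM and regular medium overlapped. Pttg1 was 2.14-fold higher in IFNγ/LPS CM than in naive CM (log2 fold change 1.101, SE 0.071, adjusted p = 4.06e-11) and 2.06-fold higher than in regular medium (adjusted p = 9.12e-11). Between naive CM and regular medium its log2 fold change was -0.06 (SE 0.0713, adjusted p = 0.584). The rise also passed with library totals, and it did not pass a test against a minimum fold of 2 (adjusted p = 0.109 relative to naive CM). Over the alternatives that left out no single library, the log2 fold change of Pttg1 was as low as 0.71 relative to naive CM. Relative to regular medium the lowest was 0.66. The ratio of Pttg1 to Espl1, picked after the values were seen and not tested, averaged 13.1 ± 1.23 in IFNγ/LPS CM (SD over 4 libraries here and for the other media), 0.937 ± 0.104 in naive CM and 2.82 ± 0.401 in regular medium.

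**Figure D4:**
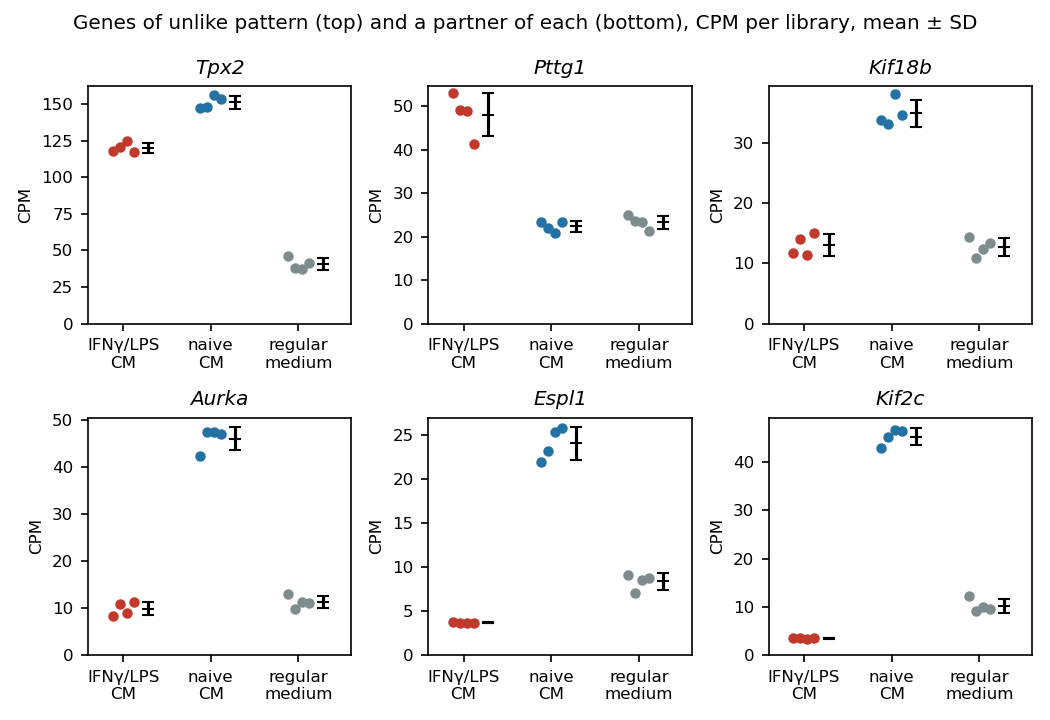
CPM in every library (points, in replicate order) with mean ± SD (n = 4) of Tpx2, Pttg1 and Kif18b in the upper row and of Aurka, Espl1 and Kif2c, which act with them or like them, in the lower row, on axes that start at 0. The mean of Tpx2 was 120.4 CPM in IFNγ/LPS CM and 151 CPM in naive CM, where that of Aurka was 9.85 CPM in IFNγ/LPS CM and 46.0 CPM in naive CM, and in the Pttg1 panel the IFNγ/LPS CM points are the highest.

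The 3 genes of the mitotic chromosome fell in IFNγ/LPS CM relative to naive CM and rose in naive CM relative to regular medium (medians -2.67 and 1.88). Top2a, the topoisomerase that untangles chromatids, was the most abundant member per kilobase in naive CM. It was at 64.7, 79.2, 71.5 and 100.1 CPM in the 4 IFNγ/LPS CM libraries, 508, 490.1, 493 and 517 CPM in naive CM and 158, 123, 106 and 121 CPM in regular medium. The media did not overlap, and Top2a was 6.37-fold lower in IFNγ/LPS CM than in naive CM and 1.62-fold lower than in regular medium (adjusted p = 4.75e-08 and 0.00157). Mki67 (Ki-67), which coats mitotic chromosomes and marks dividing cells, was at 23.0, 27.4, 23.3 and 36.4 CPM in the 4 IFNγ/LPS CM libraries, 253, 232, 259.8 and 252 CPM in naive CM and 76.8, 63.5, 63.3 and 67.5 CPM in regular medium. It fell 2.47-fold in IFNγ/LPS CM relative to regular medium (adjusted p = 5.86e-06). Ncapg, a subunit of condensin I, was at 10.5, 14.0, 12.6 and 16.9 CPM in the 4 IFNγ/LPS CM libraries, 44.5, 47.1, 49.5 and 48.1 CPM in naive CM and 19.1, 16.02, 11.0 and 14.9 CPM in regular medium. Its IFNγ/LPS CM and regular medium libraries overlapped, and the log2 fold change between them was -0.19 (SE 0.167, adjusted p = 0.325), or -0.58 with library totals (adjusted p = 0.0111). Relative to naive CM Ncapg fell 3.51-fold (adjusted p = 1.55e-06).

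Divided by the exon length of the gene, levels can be set side by side between genes. In IFNγ/LPS CM the order began with Tpx2 at 25.7 CPM per kilobase, Pttg1 at 24.0, Ckap2 at 15.6 and Top2a at 8.75. In naive CM it began with Top2a at 55.7 CPM per kilobase, Kif20a at 50.0, Ckap2 at 48.6 and Cdc20 at 43.2, with Tpx2 in place 7 and Pttg1 in place 30. In regular medium it began with Ckap2 at 18.3 CPM per kilobase, Top2a at 14.1 and Pttg1 at 11.6. Kif14 came last in each, at 0.300 CPM per kilobase in IFNγ/LPS CM, 2.50 in naive CM and 0.667 in regular medium. These lengths are of all annotated exons together, not of the transcript used, so small gaps in the order carry no weight.

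Within a medium, the same library tended to be the highest for most members. In IFNγ/LPS CM replicate 4 was the highest of the 4 libraries in 50 of the 55 members, where it was the highest for 27.4% of all genes tested, and replicate 1 was the lowest in 30. In regular medium replicate 1 was the highest in 47, against 24.9% of all genes, and replicate 3 the lowest in 31. In naive CM replicate 3 was the highest in 31, against 30.2% of all genes, and replicate 1 the lowest in 27. The median coefficient of variation over the members was 17% in IFNγ/LPS CM, 4.28% in naive CM and 13.1% in regular medium, and over all genes it was 6.69% in IFNγ/LPS CM, 6.18% in naive CM and 8.77% in regular medium. The highest IFNγ/LPS CM library, with a summed level of 945 CPM, nevertheless lay below the lowest of regular medium, at 1203 CPM. Since the members share these libraries, they are not independent of one another.

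Most other genes of the pathway, which were not among the 55, also fell in IFNγ/LPS CM relative to naive CM, with medians nearer to 0. The counts here and in the next paragraphs stand beside 35.8% of all genes lower and 36.1% higher in that comparison. In naive CM relative to regular medium 16.4% of all genes were lower and 18.3% higher. Of 26 further centromere and kinetochore assembly genes, 25 fell and 1 rose in IFNγ/LPS CM relative to naive CM (median log2 fold change -1.46), and 25 rose in naive CM relative to regular medium with 1 not past the test (median 1.11). Knl1, the scaffold that receives the checkpoint proteins, fell to 8.30 ± 2.18 CPM (SD, n = 4) in IFNγ/LPS CM and was at 57.5 ± 2.37 CPM in naive CM (log2 fold change -2.79), and Ska1 and Ska3, which hold the microtubule end, had log2 fold changes of -2.78 and -2.73. Zwint, a kinetochore protein that binds Knl1, was the member of that list that rose, to 226, 228, 233 and 214.4 CPM in IFNγ/LPS CM, where naive CM had 85.4, 88.0, 84.3 and 86.0 CPM (log2 fold change 1.39, adjusted p = 5.74e-16). Its libraries did not overlap, and like Pttg1 it did not pass between naive CM and regular medium (log2 fold change -0.05, adjusted p = 0.386).

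All 8 checkpoint partners fell in IFNγ/LPS CM relative to naive CM (median -1.002) and rose in naive CM relative to regular medium (median 0.78), led by Kntc1 (-2.10), Spdl1 (-1.90) and Zwilch (-1.74), which bring dynein to the kinetochore. All 7 further condensin genes fell (median -1.64) and rose in naive CM relative to regular medium (median 1.05), led by Ncapd2 (-2.69), Ncaph (-2.34) and Smc2 (-2.06). Of 13 cohesin genes 9 fell and 4 rose (median -0.89). Those with the largest falls act on cohesin in dividing cells, namely the protector Sgo2a (-3.23), the acetyltransferase Esco2 (-2.23) and the protector Sgo1 (-2.14), and the largest rise was that of the core subunit Stag1 (1.14). With library totals 11 of them were lower and 1 was higher.

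Of 19 centrosome and spindle pole genes 17 fell and 2 rose in IFNγ/LPS CM relative to naive CM (median -0.90), and 18 rose in naive CM relative to regular medium (median 0.57). Tacc3, which steadies spindle fibres, had the largest fall (-2.54), and Cenpj, which sets centriole length, rose to 51.2, 47.9, 56.4 and 53.3 CPM in IFNγ/LPS CM, where naive CM had 13.7, 13.2, 12.3 and 13.3 CPM (log2 fold change 1.99, adjusted p = 6.99e-16). Among 14 regulators of entry and exit 11 fell and 3 did not pass (median -1.46), the largest falls being those of the Cdk1-activating phosphatase Cdc25b (-2.97), the Plk1 activator Bora (-2.32) and the Cdk1-inhibiting kinase Wee1 (-2.21). The 17 subunits and regulators of the anaphase-promoting complex moved little, with 11 lower, 1 higher and 5 not past the test (median -0.27, and 17 lower with library totals). The largest of these falls were of the inhibitor Fbxo5 (-2.25) and the conjugating enzyme Ube2s (-0.99), which act on the complex and are not part of its core.

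The factors known to control these promoters moved in both directions, as did all genes tested. Of those, 35.8% were lower and 36.1% higher in IFNγ/LPS CM than in naive CM. Of 11 DREAM and MuvB factors with a row 6 fell, 3 rose and 2 did not pass in IFNγ/LPS CM relative to naive CM (median -0.38), and with library totals 10 were lower and 1 higher. Mybl2 (-1.23) and Lin9 (-1.14) fell most, and Rbl1 (p107) rose most (0.65). In naive CM relative to regular medium 6 of the 11 rose, 2 fell and 3 did not pass (median 0.18). Whether the changes of these factors bear on the levels of the mitosis genes was not tested. Of 6 E2F genes 5 fell and 1 rose in IFNγ/LPS CM relative to naive CM (median -1.03, and 6 lower with library totals), with E2f2 at -2.61, E2f8 at -2.58 and E2f7 at -1.64.

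DNA replication genes, which act in the preceding S phase, moved the same way with smaller changes. Of 35, 34 fell and 1 did not pass in IFNγ/LPS CM relative to naive CM (median -1.29), and 33 rose in naive CM relative to regular medium (median 0.74). Tk1, thymidine kinase, had the largest change in both (-3.47 and 2.08), and Pola1 (-1.95) and Uhrf1 (-1.92) followed in IFNγ/LPS CM. TTTGAA was in 4 of their 28 promoters (14.3%) and CCAAT in 18 (64.3%). Kinesins that carry cargo in interphase served as a comparison within the motor family. That list also holds light chains (Klc1 and Klc2) and an adaptor (Kifap3) of such motors. Of 18, 13 fell, 4 rose and 1 did not pass in IFNγ/LPS CM relative to naive CM (median -0.32), and in naive CM relative to regular medium 1 rose, 6 fell and 11 did not pass (median -0.08). Over all genes 35.8% were lower and 36.1% higher in the first comparison, and 16.4% lower and 18.3% higher in the second. The share that fell in the first was thus above that of all genes. The mitotic kinesins ranged between -3.69 and -1.42 in IFNγ/LPS CM relative to naive CM, and the transport kinesins between -1.30 for Kif5a and 1.69 for Kif5c.

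**Figure D5:**
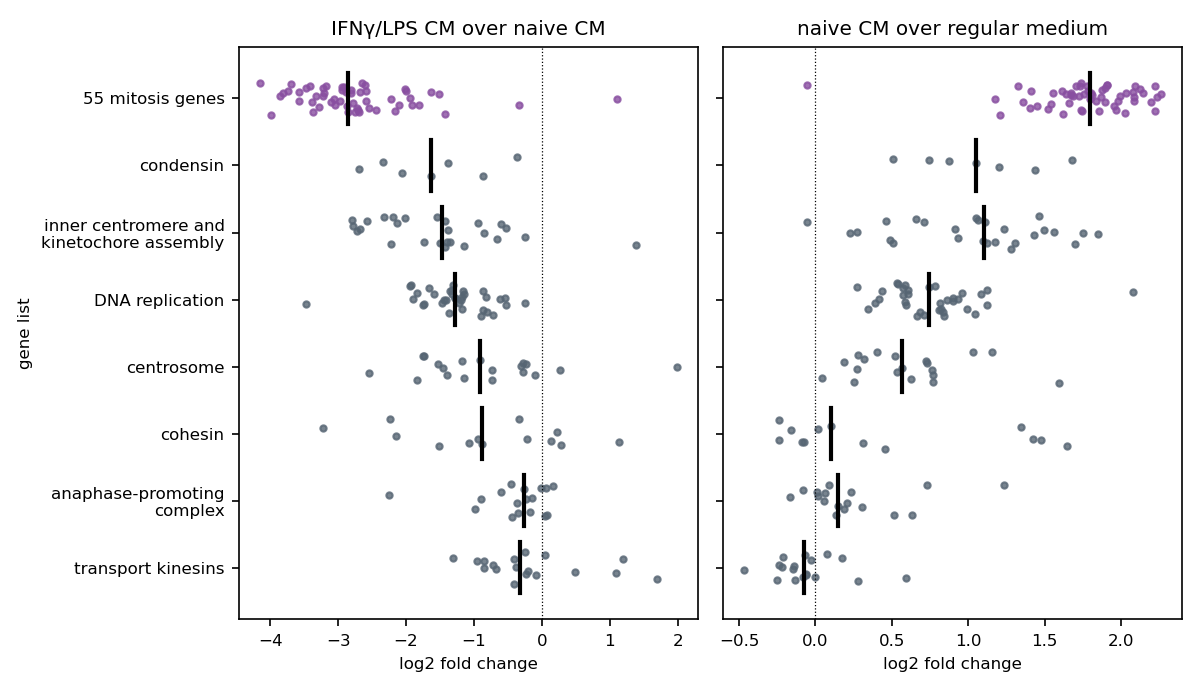
Log2 fold change of every tested gene (points) of the 55 mitosis genes and of 7 other lists, with the median of each list (bar), in IFNγ/LPS CM relative to naive CM (left) and in naive CM relative to regular medium (right). The medians of the 55 mitosis genes, -2.85 and 1.80, are the farthest from 0 of the lists shown. Those of the transport kinesins are -0.32 and -0.08, beside 0.004 and -0.02 over all genes.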

How the data were processed

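Per the labels' protocols, libraries of polyadenylated RNA were made with a stranded Illumina kit and sequenced as read pairs. The authors deposited expected counts per gene (estimated counts) as whole numbers, made with Salmon 1.10.1 on the mm10 build per the submitters' processing notes; of the annotation release, the strand setting and the step from transcripts to genes the sources used here say nothing. Columns were assigned by name, taking M0 for naive and M1 for stimulated macrophages, a usual naming. Of 55822 gene IDs, 92% matched a symbol in GENCODE M21 (GRCm38) without their version. In edgeR 4.0.16 (R 4.3.3), genes were kept by filterByExpr, scaled by TMM (mean factors 0.8365 in IFNγ/LPS CM, 1.094 in naive CM and 1.093 in regular medium) and tested two-sided with the robust quasi-likelihood F-test in 1 fit of 12 libraries, with Benjamini-Hochberg adjustment over 16140 genes and a threshold of 0.05. CPM are per 1000000 TMM-scaled counts. The SE was derived from the F statistic and is approximate. Same-numbered libraries were not treated as paired, since their deviations correlated at -0.0637 to 0.0679 over 12 pairs. Alternatives were DESeq2 size factors, library totals, no filter, 1 CPM in at least 4 libraries, DESeq2 1.42.0, limma-voom 3.58.1, a minimum fold of 2, only the groups compared, a replicate block and each library left out. The fitting steps were tested on simulated data. The members and the other gene lists were chosen with earlier results of these data known. All 55 members could be named, and from each other list up to 3 called genes of largest change and 1 of the other direction. Promoter sequences are RefSeq's, on GRCm38.p6.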

Additional observations from a re-analysis of the deposited data

Results flagged for a closer look

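Single libraries were looked at in each of the 165 sets of 4 (55 members in 3 media), and in 11 of them the highest or lowest library was farther from its nearest neighbour than Dixon's 95% critical value allows, as a share of the range. Chance alone gives about 1 in 20 such sets. IFNγ/LPS CM replicate 4 was the highest library by such a gap for Plk1 (3.24 CPM, the next at 2.15 CPM), Foxm1 (12.4 CPM, the next at 8.36 CPM), Ndc80 (7.64 CPM, the next at 5.76 CPM), Birc5 (7.73 CPM, the next at 5.25 CPM) and Ect2 (11.7 CPM, the next at 8.65 CPM). Regular medium replicate 1 was the highest for Birc5 (16.5 CPM, the next at 13.4 CPM), Kif15 (21.7 CPM, the next at 17.0 CPM) and Kif4 (22.3 CPM, the next at 17.6 CPM). Naive CM replicate 1 was the lowest for Aurka (42.3 CPM, the next at 46.99 CPM), Spc24 (17.9 CPM, the next at 20.4 CPM) and Birc5 (44.96 CPM, the next at 47.2 CPM). The members of a library are not independent, so flags on the same library are not separate events.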

How the results depend on the processing

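Over 21 alternatives, 53 of the 55 members kept their direction and their side of the threshold in IFNγ/LPS CM relative to naive CM, 53 in naive CM relative to regular medium and 20 in IFNγ/LPS CM relative to regular medium. The test against a minimum fold of 2 ended the calls of Tpx2 and Pttg1 in the first of these and of Mad2l1 and Kifc1 in the second. With it, 3670 genes were called in all in the first (1840 lower and 1830 higher, with 0 members higher; Pttg1, higher without the minimum fold, is the 1 lost), 179 in the second (10 lower and 169 higher) and 3534 in the third (1689 lower and 1845 higher), where 20 members were called, 19 lower and 1 higher. With library totals 9371 of all genes were lower and 3279 higher relative to naive CM, with a member median of -3.24, and 9597 were lower and 3279 higher relative to regular medium, with a member median of -1.42; the scaling itself moves the median of all genes. Kif18b changed sign relative to regular medium with library totals (-0.35), without IFNγ/LPS CM replicate 2 (-0.0040), without IFNγ/LPS CM replicate 4 (-0.046) and without regular medium replicate 2 (-0.04), and over all fits without 1 library it ranged over -0.046 to 0.095. Leaving out 1 library at a time, members called lower numbered 54 in each case relative to naive CM and 47 to 51 in IFNγ/LPS CM relative to regular medium, and members called higher 54 in naive CM relative to regular medium; the member medians ranged over -2.95 to -2.78, 1.74 to 1.89 and -1.18 to -0.96. The replicate number as a block changed 1 member call, that of Cenpe in IFNγ/LPS CM relative to regular medium (edgeR adjusted p = 0.0590). Whether the numbers pair the libraries is not given in the labels, and the cause of this change was not tested. The lowest member count in any library was 49, for Cdc25c.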

Other observations

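Inhibitors of cyclin-dependent kinases and the D cyclins, which act before S phase, moved in both directions. Of 10 tested, 6 fell, 2 rose and 2 did not pass in IFNγ/LPS CM relative to naive CM, where 35.8% of all genes were lower and 36.1% higher. Their log2 fold changes ranged from -2.64 to 2.38, with 4 genes at least 2-fold lower and 1 at least 2-fold higher. Their median was -0.57 on the log2 scale, and with library totals 8 were lower and 2 higher. In naive CM relative to regular medium 2 rose, 3 fell and 5 did not pass (median 0.04), where 18.3% of all genes were higher and 16.4% lower. The D cyclin Ccnd1 was at neither end of the range relative to naive CM. It had a log2 fold change of -1.75 in IFNγ/LPS CM relative to naive CM (edgeR adjusted p = 1.37e-12). In naive CM relative to regular medium it was 0.14, which did not pass (edgeR adjusted p = 0.119).

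The following 3 members of the other lists, chosen after their values were seen, rose by over 2-fold in IFNγ/LPS CM relative to naive CM as Pttg1 did. The mean of Zwint was 225 CPM in IFNγ/LPS CM and 85.9 CPM in naive CM, that of Stag1 205.5 CPM in IFNγ/LPS CM and 93.2 CPM in naive CM, and that of Cenpj 52.2 CPM in IFNγ/LPS CM and 13.1 CPM in naive CM. In naive CM relative to regular medium the log2 fold changes were -0.05 for Zwint and -0.09 for Stag1, neither past the test, and 0.25 for Cenpj (edgeR adjusted p = 0.00546).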
